A study of Mus musculus with 2 samples.

Results

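The actin cytoskeleton of DP thymocytes (immature T cells that carry both CD4 and CD8, and the most numerous cells of the thymus) was followed through 10 genes chosen by symbol from a deposited table of 21041 genes. The genes encode the cytoplasmic actins (*Actb* and *Actg1*), proteins that turn actin over (*Pfn1* and *Cfl1*), subunits of the Arp2/3 complex (*Arpc2* and *Arpc3*), and *Coro1a*, *Wipf1*, *Dock2* and *Msn*, which act on filaments, on the WASP pathway, on Rac and at the membrane. Expression was measured by mRNA sequencing in 1 library of WT and 1 of *Cxxc1*-deficient DP thymocytes. Cxxc1 binds unmethylated CpG and belongs to the Setd1 complex, which trimethylates lysine 4 of histone H3, and the comparison asks whether its loss alters expression in DP cells. By the study's methods, WT mice were *Cxxc1* fl/fl without Cre, and deficient mice carried h*CD2*-Cre besides, a transgene that expresses Cre from the human *CD2* promoter in the T lineage and removes the floxed exons. The floxed allele, shared by both groups, had been backcrossed to C57BL/6, and most mice of the study were a few weeks old. The genotype label of the deficient library reads *Cxxc1*+/-, which in the study also names mice with 1 deleted allele in the whole body, and the sources used here do not settle which mice were used. The number of mice behind each library is not given in the sources used here. There were no replicates, so the spread between libraries of 1 genotype is unknown and neither an error nor a p-value can be given for any difference below.

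Actin exists as monomers and filaments, and cells move and signal by adding monomers at one filament end and releasing them at the other. Profilin loads monomers for growth, cofilin severs old filaments, and the Arp2/3 complex starts new branches when it is switched on by WASP or WAVE proteins. In thymocytes this machinery drives migration through the thymus and the contact with cells that present antigen. DOCK2, a haematopoietic activator of Rac, lies upstream of WAVE, whereas WIP, the product of *Wipf1*, holds and stabilizes WASP.

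The deposited values are normalized per gene and rounded, and their sum is 1551994 in WT against 981677 in the deficient library, and the median gene has 36 in either library. Over 4 classes of transcript length, among genes above 0 with at least 90% unique windows (explained below), the median WT value was 34 in the shortest class and 51 in the longest, and 5.37% and 24.9% of genes had a mean of at least 100. Whether the values are per length is not given in the sources used here, so values of different genes are not ranked as levels, and each gene is compared between the libraries. *Cxxc1* itself, of which only some exons are floxed, had a value of 91 in WT against 50 in the deficient library. All 10 markers of DP thymocytes that were checked were above the median of all genes in both libraries, and all 10 were lower in *Cxxc1*-deficient cells. Markers of B cells summed to 162 in WT against 120 in *Cxxc1*-deficient cells over 5 genes, none of which reached 100. Those of macrophages and dendritic cells summed to 273 and 263 over 7 genes, with only *Itgam* above 100. The sums were 167 and 222 for 6 erythroid and platelet genes, 126 and 113 for 5 genes of thymic epithelium, and 357 and 278 for 9 genes of fibroblasts, smooth muscle and endothelium. Of all these markers only *Krt8*, a keratin of epithelium, was at 0, in the *Cxxc1*-deficient library. Genes of the Y chromosome (*Ddx3y*, *Eif2s3y*, *Kdm5d* and *Uty*) were at 0 in WT and between 17 and 67 in the deficient library, and *Xist*, made from the inactive X chromosome, had 2419 in WT against 1021 in the deficient library. RNA of male mice was thus detected in the deficient library alone, beside RNA of female mice in both, and the part of sex in the results was not tested. Where a pair of values is given below, WT comes first. In bulk RNA of this kind, fewer cells of a type and less RNA per cell cannot be told apart.

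*Actg1*, which encodes gamma-actin, was listed at 0 in both libraries, whereas *Actb*, which encodes beta-actin, had a value in both. Both actins are made in nearly all cells, so the sequences of the 2 genes were compared with the genome to which the reads had been mapped. *Actg1* lies on the minus strand of chr11:120207004-120209856 (mm9) and *Actb* on the minus strand of chr5:143664794-143668433, each with 6 exons. Their coding sequences have 1125 bases each, of which 997 are identical (88.6%). Since the authors kept uniquely mapped reads of 50 bp, all 50-base windows that lie within 1 exon of the transcript were searched in the genome. Of the 1658 windows of *Actg1*, 63 occurred once (3.80%), and the median number of copies was 3. Of the 1626 windows of *Actb*, 1397 occurred once (85.9%). All 245 windows of *Actg1* that span an exon junction were also found in the genome, where only copies without introns can hold them, against 74 of 245 for *Actb*. The stretches below cover bases 313 to 362 of both coding sequences, from chr11:120208951-120209000 and chr5:143666917-143666966 of mm9, minus strand. They are shown because the *Actg1* stretch occurs 7 times in the genome and the *Actb* stretch once. Capitals mark the 8 bases at which the 2 genes differ.
Actg1: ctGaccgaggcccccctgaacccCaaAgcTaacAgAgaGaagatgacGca
Actb: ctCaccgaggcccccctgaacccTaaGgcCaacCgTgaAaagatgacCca

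A lack of unique windows went with a value of 0 throughout the table. Of the 383 genes with under 10% unique windows, 351 were at 0 in WT (91.6%), and 351 in the deficient library. Of the 15880 genes with 90% or more, 59 were at 0 in WT (0.372%) and 68 in the deficient library (0.428%). The value of 0 is therefore not read as absence of *Actg1* RNA, and no ratio is given for it. Among the other members, *Cfl1* had 64.9% unique windows, with up to 4 copies of a window in the genome, and its level is uncertain for the same reason. *Arpc3*, *Pfn1*, *Coro1a*, *Wipf1* and *Msn* had no repeated window, and *Arpc2* and *Dock2* had 99.7% and 98.3% unique windows. Copies with mismatches were not searched.

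**Figure D1:**
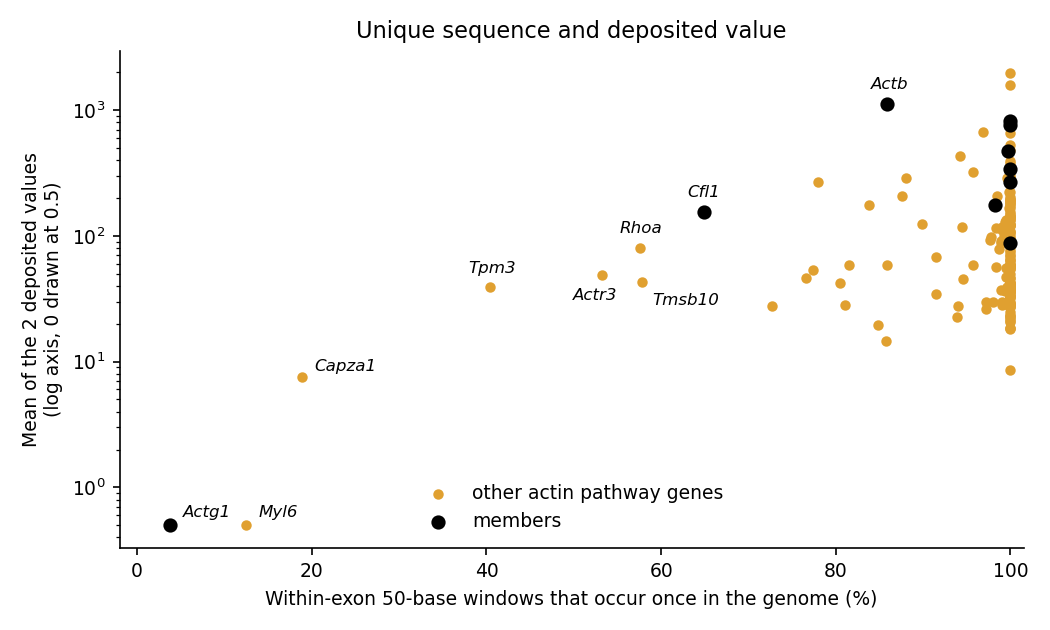
Share of the within-exon 50-base windows of each transcript that occur once in the mm9 genome (horizontal axis, percent) against the mean of the 2 deposited values (vertical axis, log scale, 0 drawn at 0.5) for the 10 members (black) and 165 other actin pathway genes (yellow). *Actg1* and *Myl6*, both listed at 0, lie at the lower left with 3.80% and 12.5% unique windows, while most genes lie at the right edge.

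The other 9 members were all lower in the *Cxxc1*-deficient library, as were 59.9% of all 20125 genes that were above 0 in at least 1 library. The sum of their values was 5997 in WT against 2407 in *Cxxc1*-deficient cells, a 2.49-fold reduction, and the median fold reduction was 2.40. For 5 of the 9 the reduction was at least 2-fold (*Arpc3*, *Pfn1*, *Coro1a*, *Msn* and *Actb*), and for 4 it was smaller. Of the 20125 genes, 17.4% were at least 2-fold lower. The ratio depended strongly on the deposited value of a gene, and of the 2472 genes whose mean reached 100, 56.8% were at least 2-fold lower, by a median of 2.12-fold. Among the 8 members above that mean, 4 were at least 2-fold lower, a share near this background. The last member, *Arpc3*, lay below it. *Arpc2*, with a fold reduction of 1.99, stood just short of the threshold, and *Actb* was the nearest above it.

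**Figure D2:**
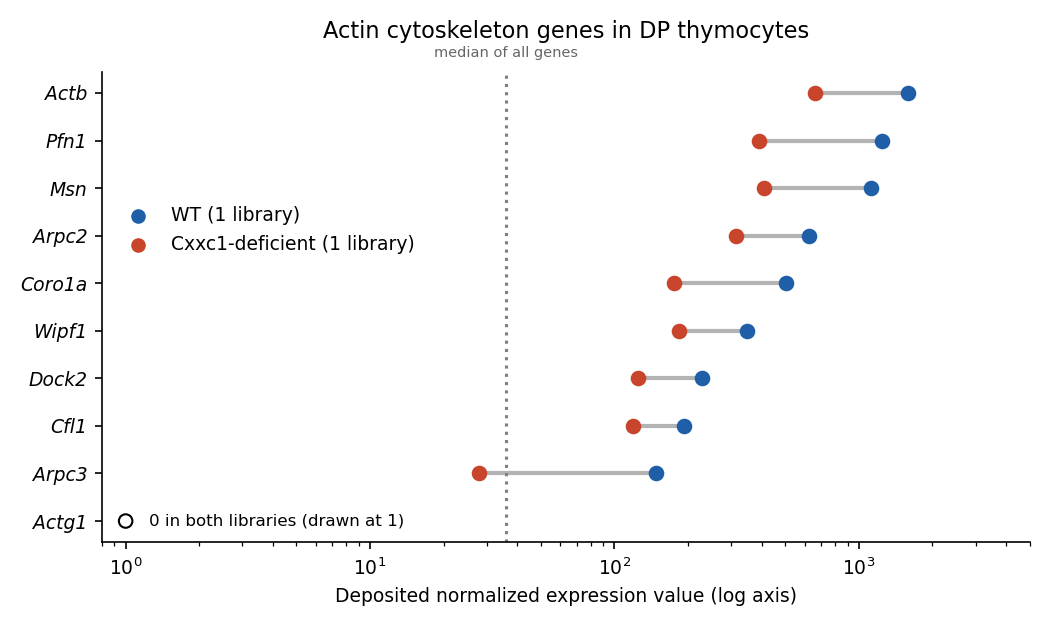
Deposited values of the 10 members in the WT library (blue) and the *Cxxc1*-deficient library (red) on a log axis, ordered by the WT value, with a dotted line at the median of all genes, 36. In all 9 members above 0 the *Cxxc1*-deficient value lies to the left of the WT value, and that of *Arpc3* falls below the dotted line.

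*Actb* read 1589 in WT against 662 in the deficient library, a 2.40-fold reduction. Of the 39 genes with a mean of 1000 or more, 28 had a reduction at least as large, and their median was 3.52. Its share of the summed values of the members was 26.5% in WT against 27.5% in *Cxxc1*-deficient cells. The 4 actin genes of muscle lay between 12 and 50 in both libraries. *Acta2* had 50 in WT against 44 in *Cxxc1*-deficient cells, and *Actc1* had 29 and 44. *Actg2* had 12 and 25, the one value of the actin pathway list that was at least 2-fold higher.

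*Pfn1*, which encodes profilin, lies on the minus strand of chr11:70465352-70468146. Its value was 1240 in WT against 389 in *Cxxc1*-deficient cells, a 3.19-fold reduction. *Cfl1*, which encodes the filament-severing protein cofilin, lies on the plus strand of chr19:5490485-5494029. It had 192 in WT against 119 in *Cxxc1*-deficient cells, a 1.61-fold reduction and the smallest of the 9. The ratio of *Cfl1* to *Pfn1* within a library, whose difference between libraries depends neither on their scaling nor on transcript length, was 0.155 in WT against 0.306 in *Cxxc1*-deficient cells. Of the genes with a mean from 300 to under 1000, as *Pfn1* has, 124 of 367 had a reduction at least as large as its own. Of those with a mean from 100 to under 300, as *Cfl1* has, 1535 of 2066 did. The median fold reduction was 2.69 in the first of these bands and 2.04 in the second. The ratio of *Cfl1* to *Pfn1* is thus not free of the level of these genes. Neither are the ratios below between genes of different level, and the part of level in them was not tested. With both included, 11 of the 14 genes for profilins, cofilins and other monomer-binding proteins had a lower value in the deficient library, 5 of them at least 2-fold, against 59.9% and 17.4% of all genes. The 6 with a mean of at least 50 all reached 100. Of these, 4 were at least 2-fold lower, against 56.8% of all genes whose mean reached 100. *Tmsb4x*, which encodes the monomer-sequestering thymosin beta 4, had 2905 in WT against 232 in *Cxxc1*-deficient cells, a 12.5-fold reduction. The ratio of *Tmsb4x* to *Pfn1* was 2.34 in WT against 0.596 in *Cxxc1*-deficient cells. *Cap1*, which encodes the cyclase-associated protein that recharges monomers, had 569 and 294. *Ssh2*, which encodes a phosphatase that activates cofilin, had 228 and 114, and *Limk2*, which encodes a kinase that inactivates it, had 127 and 84. The genes *Pfn2*, *Pfn3* and *Pfn4* lay between 28 and 42 in both libraries.

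The Arp2/3 complex is built from ARP2, ARP3 and further subunits, and ARPC2 is part of its core. *Arpc2* lies on the plus strand of chr1:74283071-74314783 and read 627 in WT against 315 in *Cxxc1*-deficient cells. This is a 1.99-fold reduction. *Arpc3* lies on the plus strand of chr5:122841887-122856188 and had 148 in WT against 28 in *Cxxc1*-deficient cells, a 5.29-fold reduction and the largest of the 9. In its band of mean level, from 50 to under 100, 30 of 3657 genes had a reduction at least as large (0.820%), and the median was 1.45. The value of 28 lies below the median of all genes, 36, and close to the median of the 1122 olfactory receptor genes in this library, 24. Olfactory receptors are not made in thymocytes, so the size of this reduction depends on what level is taken as background. The ratio of *Arpc3* to *Arpc2* was 0.236 in WT against 0.0889 in *Cxxc1*-deficient cells.

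With *Arpc2* and *Arpc3* included, 9 of the 10 genes of the complex were lower in the deficient library, 6 of them at least 2-fold. Of all genes, 59.9% were lower and 17.4% at least 2-fold lower. Of the 8 with a mean of at least 50, 5 were at least 2-fold lower, against 34.9% of all genes above this mean. Several of the 8 had a mean above 100, and of all genes whose mean reached 100 the share was 56.8%. *Actr2*, which encodes ARP2, had 263 in WT against 91 in *Cxxc1*-deficient cells. *Actr3*, which encodes ARP3, had 82 and 15, a 5.47-fold reduction, but 53.2% of its windows were unique. The value of 15 lies below the olfactory receptor median of the deficient library, 24, so the size of this reduction also depends on the background. The ARPC1 subunit comes in alternative forms, and *Arpc1b*, the form typical of blood cells, had 220 and 191, a 1.15-fold reduction. *Arpc1a*, the other form, had 130 and 44, a 2.95-fold reduction. The ratio of *Arpc1b* to *Arpc1a* was thereby 1.69 in WT against 4.34 in *Cxxc1*-deficient cells. Of the within-exon windows, 87.6% were unique in *Arpc1b* and 98.9% in *Arpc1a*. *Arpc4* had 202 and 74, and *Arpc5l* had 156 and 59. The reductions of the 9 lower genes thus ranged from 1.15-fold to 5.47-fold, the last being that of *Actr3*. *Actr3b*, which encodes a variant of ARP3, had 28 and 36.

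*Wipf1*, which encodes WIP, lies on the minus strand of chr2:73267667-73367791. Its value was 349 in WT against 184 in *Cxxc1*-deficient cells, a 1.90-fold reduction. *Was*, which encodes its partner WASP, had 203 in WT against 34 in *Cxxc1*-deficient cells, a 5.97-fold reduction, and the value of 34 is again below the median of all genes. The ratio of *Wipf1* to *Was* was 1.72 in WT against 5.41 in *Cxxc1*-deficient cells. *Wasl*, which encodes the widely expressed N-WASP, had 236 and 122. *Pstpip1*, which encodes a WASP-binding adaptor, had 92 and 28. Of the 8 genes of the WASP and WIP family, 7 were lower, against 59.9% of all genes, and *Wipf3* had 30 and 48. The 7 all had a mean of at least 50, and 4 of them were at least 2-fold lower, against 34.9% of all genes above this mean and 56.8% of those whose mean reached 100.

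*Dock2* spans chr11:34126815-34597394 on the minus strand, with 52 exons. Its value was 229 in WT against 125 in *Cxxc1*-deficient cells, a 1.83-fold reduction. In the band of mean level from 100 to under 300, 1297 of 2066 genes had a reduction at least as large. *Elmo1*, whose product binds DOCK2, had 131 in WT against 104 in *Cxxc1*-deficient cells. *Dock8*, which encodes an activator of Cdc42, had 212 and 120, and *Dock11* had 246 and 120. Only *Dock11* of the 6 genes of this family with a mean of at least 50, *Dock2* included, was at least 2-fold lower. The share was 34.9% of all genes above this mean and 52.8% of those from 100 to under 300, where most of the 6 lay. The median fold reduction of the 6 was 1.76. DOCK2 activates RAC1 and RAC2. *Rac1* had 354 and 180, a 1.97-fold reduction, with 78.0% unique windows, and *Rac2* had 389 and 251, a 1.55-fold reduction. *Rhoh*, which encodes a GTPase of lymphocytes, had 379 and 201. The WAVE complex follows Rac. Of its 11 genes in the table, *Abi1* had 601 and 181, *Cyfip2* had 548 and 417, and *Nckap1l*, which encodes the haematopoietic subunit HEM1, had 232 and 65. The fold reductions of these subunits were 3.32, 1.31 and 3.57, so genes of 1 complex again differed. Of the 11, 7 were lower and 4 higher, against 59.9% of all genes lower. Among the 8 with a mean of at least 50, 3 were at least 2-fold lower, against 34.9% of all genes above this mean. Most of the 8 had a mean above 100, and of all genes whose mean reached 100 the share was 56.8%.

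**Figure D3:**
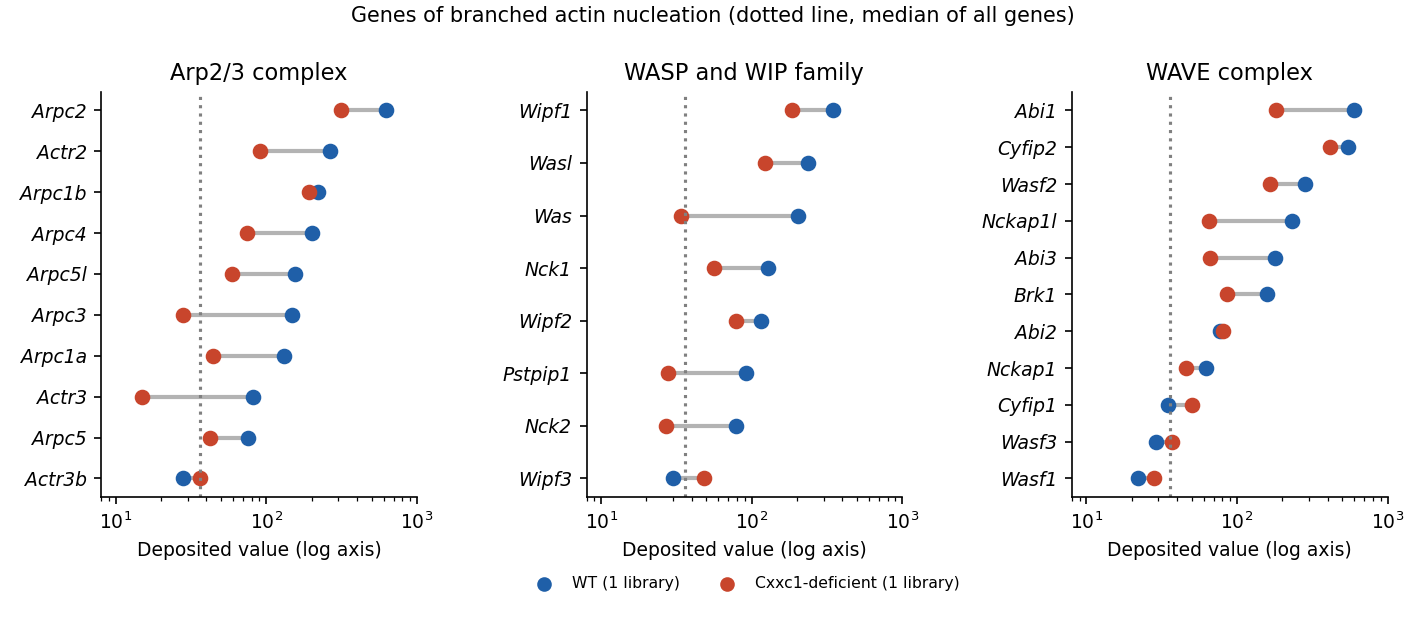
Deposited values of the genes of the Arp2/3 complex, the WASP and WIP family and the WAVE complex in the WT library (blue) and the *Cxxc1*-deficient library (red) on log axes, each panel ordered by the WT value, with a dotted line at the median of all genes, 36. *Arpc3*, *Actr3*, *Was*, *Pstpip1* and *Nck2* lie above the dotted line in WT and below it in *Cxxc1*-deficient cells, while *Arpc1b* and *Abi2* have nearly equal values.

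*Coro1a*, which encodes the coronin of blood cells that curbs Arp2/3 branching and is needed for T-cell survival, lies on the minus strand of chr7:133843287-133847734. Its value was 501 in WT against 176 in *Cxxc1*-deficient cells, a 2.85-fold reduction. In its band of mean level, 167 of 367 genes had a reduction at least as large, so it lay near the middle of the band. *Coro7* had 103 in WT against 39 in *Cxxc1*-deficient cells, and *Coro1b* had 70 and 59. *Gmfb*, which encodes a factor that takes branches apart, had 443 and 139, and *Hcls1*, which encodes the branch-stabilizing protein HS1, had 149 and 49.

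*Msn*, which encodes moesin, a linker of actin to the plasma membrane, lies on the plus strand of chrX:93291381-93363891. Its value was 1122 in WT against 409 in *Cxxc1*-deficient cells, a 2.74-fold reduction. A reduction at least as large was seen in 176 of the 367 genes of its band. The other linkers of its family were also lower. *Ezr*, which encodes ezrin, had 1028 and 282, a 3.65-fold reduction, and *Rdx*, which encodes radixin, had 457 and 137, a 3.34-fold reduction. The ratio of *Msn* to *Ezr* was 1.09 in WT against 1.45 in *Cxxc1*-deficient cells. The kinases that act on these linkers gave unequal values, with 461 and 185 for *Slk* and 141 and 117 for *Stk10*. *Msn*, *Was*, *Tmsb4x*, *Dock11* and *Arhgef6* are on the X chromosome, and the Y-linked genes above differed between the libraries, the part of which was not tested. Of the genes whose mean reached 100, the 99 on the X chromosome were lower by a median of 2.37-fold and the 2242 on autosomes by 2.12-fold.

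Set against all genes of similar deposited value, 4 of the 9 members had a reduction above the median of their band (*Arpc3*, *Pfn1*, *Coro1a* and *Msn*) and 5 had one below it. The median fold reduction of all genes was 1.45 at a mean from 50 to under 100, where 20% of genes were at least 2-fold lower. It was 2.04 from 100 to under 300 (52.8%), 2.69 from 300 to under 1000 (76.6%) and 3.52 from 1000 (87.2%). Among the members, *Arpc3* alone had a reduction above the upper quartile of its band, 1.86, and *Arpc2* alone had one below the lower quartile of its band, 2.08. Reductions at least as large as those of *Pfn1* and *Coro1a* were seen in 33.8% and 45.5% of the genes of their band.

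**Figure D4:**
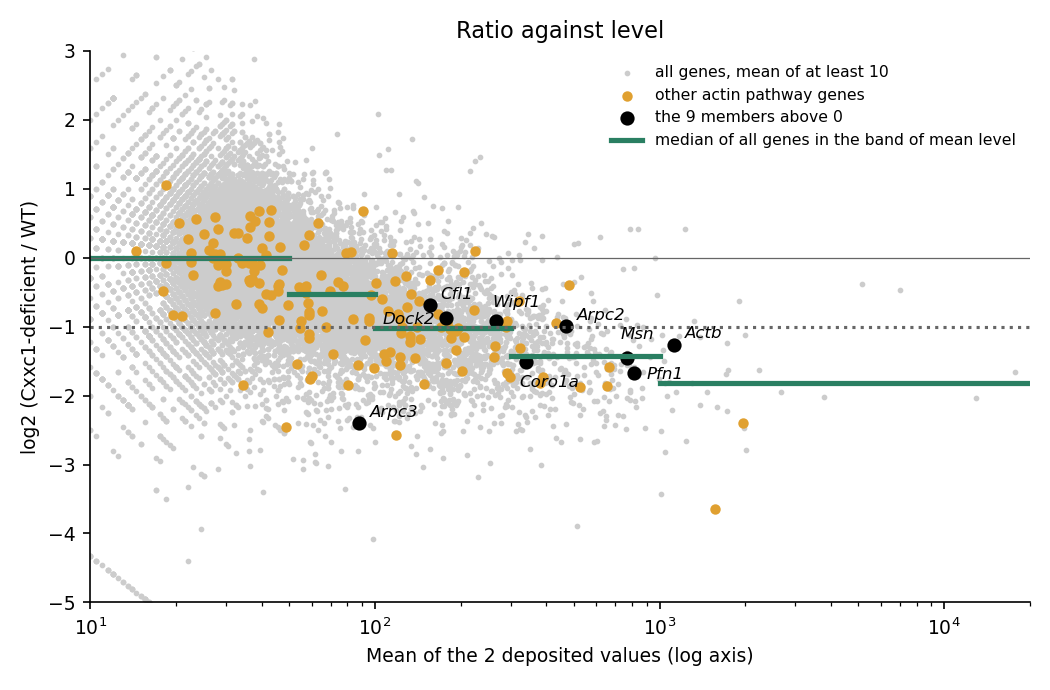
Mean of the 2 deposited values (log axis) against the log2 ratio of *Cxxc1*-deficient to WT for all genes with a mean of at least 10 (grey), other actin pathway genes (yellow) and the 9 members above 0 (black), with green bars at the median of all genes in 5 bands of mean level and a dotted line at a 2-fold reduction (points beyond the axes are not drawn). Most members lie near the green bars, which drop as the level rises, whereas *Arpc3* lies well below its bar.

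The wider actin pathway was described with 165 further genes in 19 families, of which 164 were above 0 in at least 1 library. The exception was *Myl6*, which encodes a myosin light chain and had 12.5% unique windows. Of the 164 genes, 51 were at least 2-fold lower and 1 was at least 2-fold higher, against 17.4% and 5.89% of all genes. Of the 93 whose mean reached 50, 85 were lower, 48 of them at least 2-fold, and 8 were higher, all by less than 2-fold. Of all genes above this mean, 0.587% were at least 2-fold higher. The median fold reduction of the 93 genes was 2.0, and that of all 6129 genes above this mean was 1.69, with 34.9% at least 2-fold lower. These medians were not matched for level, since 59 of the 93 reached a mean of 100, against 2472 of the 6129. From 50 to under 100, 12 of the 34 listed genes were at least 2-fold lower (35.3%), against 20% of all genes there. At higher levels the shares were closer. Among the 48 listed genes with a mean from 100 to under 300, 28 were at least 2-fold lower (58.3%), against 52.8% of all genes in this band. Of the 9 with a mean from 300 to under 1000, 6 were (66.7%), against 76.6%. In these bands, in order, the median fold reductions of the listed genes were 1.75, 2.02 and 3.02. Those of all genes were 1.45, 2.04 and 2.69.

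The exchange factors *Arhgef1* and *Arhgef6* had 375 and 154, and 383 and 141. The capping protein genes *Capza2* and *Capzb* had 594 and 168, and 306 and 98, while *Capza1*, with 18.9% unique windows, had 6 and 9. *Fyb* and *Apbb1ip*, which encode adaptors between the T-cell receptor, integrins and actin, had 824 and 225, and 276 and 109. The myosin gene *Myh9* had 284 and 128 and the tropomyosin gene *Tpm1* had 186 and 80, whereas the myosin gene *Myh10* had 22 and 33. The reductions of the alpha-actinin genes were smaller, with 161 and 98 for *Actn1* and 158 and 110 for *Actn4*.

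Only *Fmnl1* and *Mkl2* had a higher value in *Cxxc1*-deficient cells among the 59 listed genes with a mean of at least 100. *Fmnl1*, which encodes a formin of blood cells, had 218 in WT against 232 in *Cxxc1*-deficient cells, whereas its relative *Fmnl2* had 183 and 83. *Mkl2* had 112 and 117, and *Mkl1* had 80 and 85. Their products sense free actin monomers and switch on SRF, the factor that acts at many actin genes. *Srf* had 74 and 43. *Tagln2*, which encodes the actin-binding protein transgelin 2, had 70 and 112, the highest ratio of deficient to WT among the 93 listed genes.

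**Figure D5:**
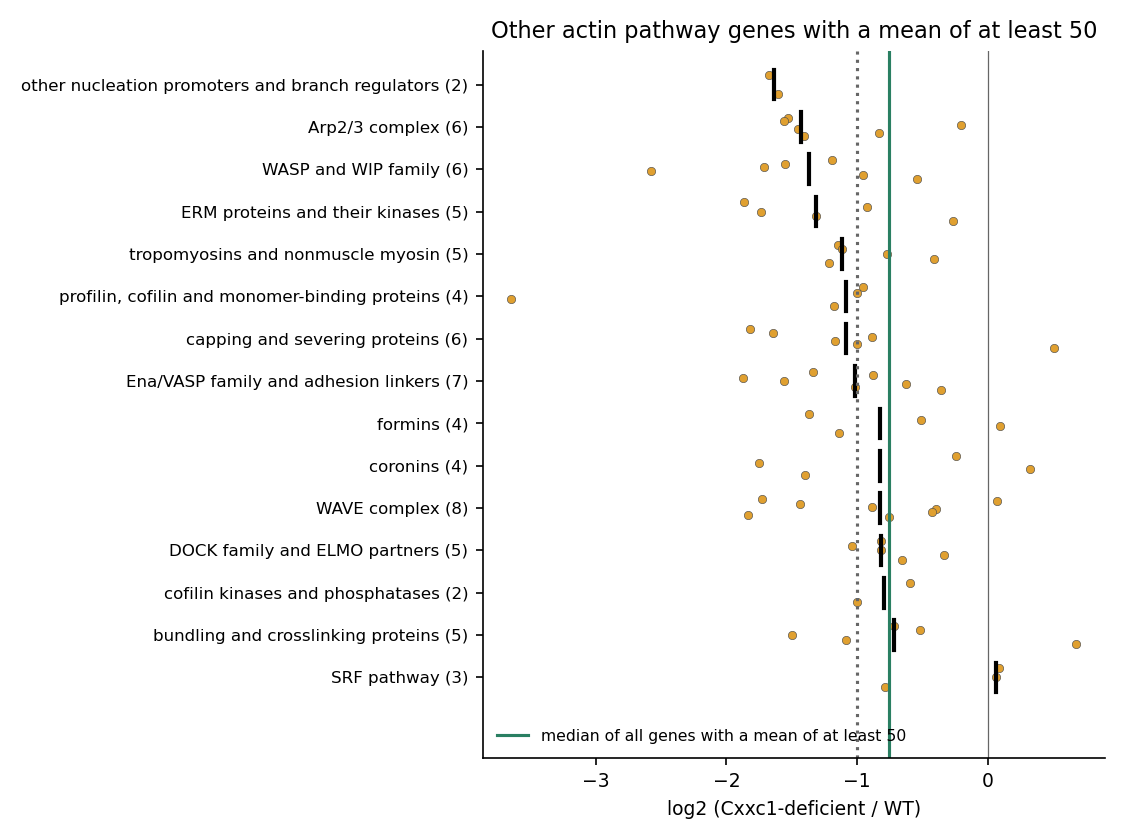
Log2 ratio of *Cxxc1*-deficient to WT (horizontal axis) for 72 of the 93 other actin pathway genes with a mean of at least 50, in 15 families, with the number of genes in parentheses, a black bar at the family median, a green line at the median of all genes with a mean of at least 50 and a dotted line at a 2-fold reduction. In every family shown but the SRF pathway the median lies below 0, and *Tmsb4x* is the point farthest to the left.

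Promoters were compared because Cxxc1 can bind CpG. In DP cells, however, the paper found few Cxxc1-binding sites at CpG islands, which are stretches rich in CpG. It also found that a Cxxc1 mutant without DNA binding still let DP cells form in culture. Binding of Cxxc1 at these promoters was not examined here. RefSeq promoter windows, from 250 bases before to 50 after the start of transcription (GRCm38.p6), were found for 9 of the 10 members, with 12 windows in all. The member without a window was *Actb*. The median of all 32851 windows was 7 CpG, and 9 of the 12 member windows had more. *Arpc2* had 40 CpG, *Arpc3* and *Msn* 21, *Cfl1* 22 and *Pfn1* 14. *Dock2* had 5 CpG, and *Wipf1* had 1, 4 and 37 at its alternative starts. The GC box GGGCGG, which holds a CpG itself, was in 9 of the 12 member windows, from 8 of the 9 members, and in 35.7% of all windows. CCAAT was in 3 of the 12 and in 37.4% of all windows, both searched on either strand. All windows were counted whatever the deposited value of the gene. The 250 bases before the start are shown for 3 members, with each CpG in capitals. They were taken from chr1:74236267-74236516 on the plus strand, chr5:122391628-122391877 on the plus strand and chr11:34783906-34784155 on the minus strand. In these bases *Arpc2*, *Arpc3* and *Dock2* had 33, 17 and 4 CpG, and their fold reductions were 1.99, 5.29 and 1.83. Whether the number of CpG goes with the reduction was not tested.
Arpc2: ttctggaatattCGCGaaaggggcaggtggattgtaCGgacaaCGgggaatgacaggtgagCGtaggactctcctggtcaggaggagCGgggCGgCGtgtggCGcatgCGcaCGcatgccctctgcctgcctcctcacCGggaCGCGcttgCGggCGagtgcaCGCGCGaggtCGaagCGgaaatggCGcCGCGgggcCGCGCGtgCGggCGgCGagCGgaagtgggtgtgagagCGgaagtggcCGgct
Arpc3: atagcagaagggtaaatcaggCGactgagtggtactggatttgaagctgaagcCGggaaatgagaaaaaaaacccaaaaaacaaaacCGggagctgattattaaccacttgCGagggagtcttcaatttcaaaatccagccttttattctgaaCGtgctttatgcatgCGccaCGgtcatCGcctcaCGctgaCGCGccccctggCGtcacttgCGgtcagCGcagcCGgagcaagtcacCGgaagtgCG
Dock2: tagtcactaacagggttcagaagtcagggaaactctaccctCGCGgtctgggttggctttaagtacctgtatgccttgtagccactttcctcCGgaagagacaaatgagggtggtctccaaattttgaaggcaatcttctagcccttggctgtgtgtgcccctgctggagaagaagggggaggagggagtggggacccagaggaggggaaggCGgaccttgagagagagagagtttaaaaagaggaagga

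The CArG box, the element bound by SRF, searched on both strands, was in 1 of the 12 windows, that of *Actg1*, and in 1.63% of all windows. The promoter of *Actb* had no window and was not searched. It is shown in capitals in the 250 bases before the start of *Actg1*, on the minus strand of chr11:120348496-120348745 (GRCm38.p6), where it begins 90 bases before the start of transcription.
Actg1: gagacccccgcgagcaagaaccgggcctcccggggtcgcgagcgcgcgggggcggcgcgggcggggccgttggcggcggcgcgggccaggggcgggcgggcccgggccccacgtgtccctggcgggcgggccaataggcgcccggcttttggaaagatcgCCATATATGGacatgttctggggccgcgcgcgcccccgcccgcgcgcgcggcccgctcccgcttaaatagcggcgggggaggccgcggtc

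The size and direction of these differences rest on the scaling of the libraries. When the median of all genes whose mean reached 100 was made equal, by a factor of 2.0 on the *Cxxc1*-deficient values, 4 of the 9 members had a higher value in *Cxxc1*-deficient cells (*Cfl1*, *Dock2*, *Wipf1* and *Arpc2*), and the median log2 ratio of all genes moved from -0.20 to 0.79. *Actb*, *Pfn1*, *Coro1a*, *Arpc3* and *Msn* stayed lower under each scaling that was tried. This had to be so, because their reductions as deposited were larger than the largest factor, 2.0.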

How the data were processed

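mRNA of CD4 and CD8 double-positive (DP) thymocytes was measured in 2 samples, 1 WT and 1 *Cxxc1*-deficient, grouped by their titles. Reads of 50 bp from CASAVA 1.8.2 were mapped to mm9 and the uniquely mapped reads were summarised with Partek, and the submitters' processing notes also name Bowtie 1.0.1. What the authors deposited is a score for each gene, that is, expression after a normalization whose formula and gene annotation are not given in the sources used here, written as whole numbers. Number of reads is therefore unknown, and no interval or p-value was computed.

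Ratios were taken between deposited values, each raised to at least 1. Called means a change of at least 2-fold. Genes were grouped by the mean of the 2 libraries. The 10 genes and the 165 other actin pathway genes were chosen with earlier results of these data known. In each family the 2 genes of highest mean were to be named, with any gene of a mean of at least 100 that was higher in *Cxxc1*-deficient cells, and others were named after their values were seen. The genes of 1 family are counted but not reported by name here. Of the 165 symbols, 5 were matched through older names. Gene coordinates came from GENCODE vM1 (NCBIM37, that is, mm9) with the longest protein-coding transcript per gene. All 50-base windows of each transcript were searched on both strands of NCBIM37 for exact copies. Promoter windows came from RefSeq (GRCm38.p6). The ratio script was tested on simulated data. Alternatives were other scalings, pseudocounts, thresholds, filters and subtraction of the olfactory receptor median. Python 3.11.15, numpy 2.4.6, pandas 2.3.3, numba 0.67.0 and matplotlib 3.10.9 were used.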

Additional observations from a re-analysis of the deposited data

How the results depend on the processing

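Among all 20125 genes, 3502 were at least 2-fold lower and 1186 higher as deposited. The first scaling made the median of the genes above 0 in both libraries equal, by a factor of 1.03 on the *Cxxc1*-deficient values. The median log2 ratio was then -1.22 over the members, against -1.26 as deposited, and -0.96 over the actin pathway genes with a mean of at least 50, against -1.0. With equal 75th percentiles of the same genes (1.31) the medians were -0.88 and -0.61. Then 28 actin pathway genes were at least 2-fold lower and 4 higher, against 51 and 1 (all genes, 1783 and 2417). With equal sums without the 100 highest genes (1.48), 2 members were at least 2-fold lower, against 5, the medians were -0.70 and -0.44, and the pathway counts were 19 and 12 (all genes, 1317 and 3468). With equal medians of genes whose mean reached 100 (2.0), 1 member was at least 2-fold lower, the medians were -0.27 and -0.0034, and the counts were 4 and 36 (all genes, 706 and 7492). Under this scaling the log2 ratios of *Cfl1*, *Dock2*, *Wipf1* and *Arpc2* became positive, at 0.31, 0.12, 0.073 and 0.0035. These shifts are the factors themselves, and no spike-in or read total was used here to choose among them. Subtracting the olfactory receptor median gave 8 members at least 2-fold lower, medians of -1.30 and -1.29, pathway counts of 90 and 11 (all genes, 7527 and 3038), and a log2 ratio of -4.98 for *Arpc3*. A pseudocount of 1 gave a pathway median of -0.99, and one of 10 gave medians of -1.25 and -0.93 and 0 pathway genes higher. At a threshold of 1.5-fold, 9 members, 80 pathway genes lower and 7 higher passed (all genes, 6415 and 2592), and at 3-fold, 2, 18 and 0 (all genes, 1267 and 508). With a mean of at least 50 required, 0 pathway genes were at least 2-fold higher. The pathway median was -0.53 with no filter and -1.07 at a mean of at least 100. In genes with at least 90% unique windows, a setting chosen after seeing the data, the medians were -1.46 and -0.98. Of 63 member ratios under the scalings, the pseudocounts and the olfactory receptor subtraction, 59 were below 0 and 4 above. The pseudocounts could not change a sign. Nor could the subtraction, which took 22 from WT values and 24 from *Cxxc1*-deficient values. A scaling could do so only where its factor exceeded the reduction. No paired analysis was possible because there is a single library of WT and a single one of *Cxxc1*-deficient cells.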
